A study of Homo sapiens with 2 samples.

Results

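The clusters described here are 693 transcript clusters of a human exon and transcript array that carry no gene symbol and whose signal differed at least 1.5-fold between a cisplatin-resistant ovarian carcinoma line, OAW42-R, and the sensitive line it came from, OAW42. A transcript cluster is the set of probes that the array's design assigns to 1 transcribed stretch of the genome. Of 67524 clusters on the array, 42203 had no symbol in the platform annotation, and 33477 of those lay outside chromosomes 3, 4, 15, 22, X and Y and outside alternative haplotypes. The 693 were chosen by the difference between the arrays themselves, so their sizes and directions are a description and were not tested.

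The study asked which transcripts differ between cells that survive cisplatin, a platinum compound that crosslinks DNA, and cells that do not. OAW42 is an established line from an ovarian serous carcinoma, and OAW42-R was derived from it by exposure to rising cisplatin with recovery between exposures. Neither line was under cisplatin when its RNA was taken, and both were cultured alike. Each line had 1 array of 1 culture, OAW42-R is 1 derived line, and the spread between cultures was not measured, so no difference below has an error.

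Genomes are transcribed well beyond their annotated genes. Clusters with no symbol can be long non-coding RNAs, antisense or intronic transcripts, pieces of pre-mRNA, transcripts of enhancers or endogenous retroviruses, or untranslated ends that the annotation does not join to a gene. Many such transcripts are made only in certain cell types, and a neighbouring gene on the same strand can share its promoter or its transcription with them.

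GLDC and NALF1 were among the genes that were more than 2-fold higher in OAW42-R together with an unnamed cluster beside them. GLDC, the decarboxylase of the glycine cleavage system, read 9.09 on the OAW42 array and 10.39 on the OAW42-R array (log2 signal, where a difference of 1 is 2-fold), and the unnamed cluster with the next number, TC09000900, had 4.06 and 5.38. NALF1, an ancillary protein of the sodium leak channel NALCN, had 8.10 and 9.32, and its next number, TC13000864, had 5.97 and 7.16. TC09000900 was below the median of all clusters on both arrays (6.30 and 6.34), where a level is near background. TC13000864 was below it in OAW42 only. Both genes are on the minus strand. The order of numbers was checked by 1 coordinate per gene, so the next number can lie within the gene or beyond its start. The number after TC13000864 is the microRNA gene MIR1267, which differed by 0.24. The promoters of both genes are shown as background, whether or not the clusters lie near them. They are as RefSeq gives them on GRCh38.p14, from 250 bases before the start to 50 after it, 5′ to 3′ on the minus strand. Capitals mark matches on either strand to the GC box GGGCGG and to CCAAT.
GLDC, chr9:6645680-6645979: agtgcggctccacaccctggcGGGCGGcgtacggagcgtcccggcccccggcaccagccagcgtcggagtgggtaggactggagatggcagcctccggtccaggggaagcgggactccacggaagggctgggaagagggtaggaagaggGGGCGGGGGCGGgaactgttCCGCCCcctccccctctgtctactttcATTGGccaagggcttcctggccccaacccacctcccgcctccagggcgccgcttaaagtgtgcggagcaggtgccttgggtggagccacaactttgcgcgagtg
NALF1, chr13:107867447-107867746: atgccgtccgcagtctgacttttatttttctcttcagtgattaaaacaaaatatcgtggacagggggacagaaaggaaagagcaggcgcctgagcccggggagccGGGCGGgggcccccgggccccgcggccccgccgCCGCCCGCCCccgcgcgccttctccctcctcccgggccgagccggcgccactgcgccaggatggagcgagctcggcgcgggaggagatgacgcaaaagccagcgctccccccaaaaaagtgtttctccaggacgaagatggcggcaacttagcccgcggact
The GLDC window held 4 matches to the GC box and 1 to CCAAT, and the NALF1 window held 3 to the GC box, some of them overlapping, and none to CCAAT. Of 35116 promoters of the same length, 45.0% held a GC box and 34.6% held CCAAT. Neither window held the TATA box TATAAA, found in 11.5% of promoters, or the hypoxia response core ACGTG, found in 21.4%. G and C made up 69.0% of the GLDC window and 66.3% of the NALF1 window against a median of 58.7%, and CG dinucleotides numbered 22 and 32 against a median of 14. The matches are letters in a window and were not tied to any factor. Where TC09000900 and TC13000864 start was not known here.

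Each ID holds a chromosome and a number, and the numbers were used to find neighbours. On each chromosome they fell into 4 blocks. In the first block, 98.1% of 8630 successive pairs of named clusters followed the RefSeq order of genes, and 99.3% of the genes with a strand were on the plus strand. In the second block 98.0% of 8467 pairs were in order and 99.7% of genes were on the minus strand. The third block held 18476 unnamed clusters and not 1 cluster with a symbol, so its order could not be checked, and the fourth mixed both strands. Of the 693 clusters, 133 were in the first block, 168 in the second, 386 in the third, 5 in the fourth and 1 on an unplaced contig. Clusters that differed were 1.80% of the unnamed clusters in the first block, 2.27% in the second and 2.09% in the third.

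Most of the clusters were higher in the resistant line. Of the 33477 unnamed clusters 557 were at least 1.5-fold higher in OAW42-R, which is 1.66%, and 136 were at least 1.5-fold lower, which is 0.406%. Those shares restate the choice of clusters. Clusters with 1 gene symbol, which the choice did not use, were 1.63% higher (299 of 18315) and 0.835% lower (153), so 66.2% of the named clusters past 1.5-fold were higher against 80.4% of the unnamed ones. The median difference over all unnamed clusters was 0.03 on the log2 scale and that over named clusters was 0.00. With the median difference of the arrays removed, the share of higher unnamed clusters was 76.7%.

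At least 2-fold differences were seen for 149 higher and 33 lower clusters, 4-fold for 25 and 4, 8-fold for 4 and 1, and 16-fold for 3 and none. The median difference was 0.77 for the higher and -0.77 for the lower clusters, so the typical cluster was little past the limit. Just inside the limit 24 clusters differed by 0.59 and 6 by -0.59. Just outside it 22 unnamed clusters differed by 0.58 and 6 by -0.58.

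**Figure D1:**
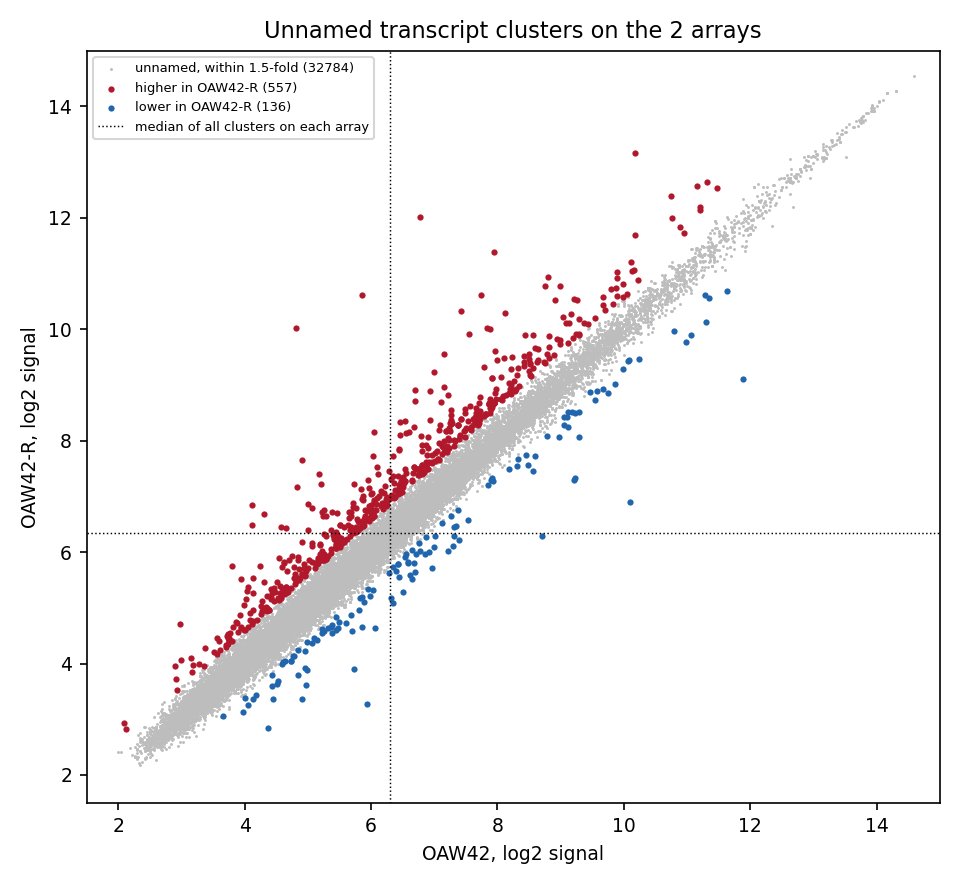
Log2 signal of each unnamed cluster on the OAW42 array (x axis) and the OAW42-R array (y axis), 1 point per cluster, with red for the 557 higher and blue for the 136 lower clusters. Dotted lines mark the median of all clusters on each array, 6.30 and 6.34, and 225 of the coloured points lie below both lines.

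Signal decided how far a difference could be read. The median of all clusters was 6.34 on the OAW42-R array and 6.30 on the OAW42 array, and that of unnamed clusters was 5.79 and 5.74. Of the 693 clusters, 327 were above the array's median in both lines, 141 in the brighter line only, and 225 in neither, where a level is near background. The brighter array reached its median for 388 of the higher clusters (69.7%) and 80 of the lower ones (58.8%), against 39.8% of unnamed clusters in general. That measure shares its values with the choice of clusters.

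With unnamed clusters split into 4 equal bins by the mean of both arrays, the share past 1.5-fold was 0.848% in the dimmest bin, 1.66% and 2.21% in the middle bins and 3.56% in the brightest. The brightest bin held 252 higher and 46 lower clusters, 84.6% of them higher. In the dimmest bin 46 were higher and 25 lower, which is 64.8% higher. Of the 29 clusters past 4-fold, 21 were in the brightest bin and 0 in the dimmest. Large differences were thus seen mostly among bright clusters, while 12 of the 29 had a dimmer array below its median, where a fold is compressed. The bins share their values with the choice of clusters. The dimmest bin, with means of 2.20 to 4.57, left little room for a 4-fold difference, so its count was partly set in advance.

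The largest difference was that of TC10002568, at 12.02 in OAW42-R and 6.77 in OAW42, a 38.1-fold difference. The number before it, TC10002567, was at 10.61 and 5.85, a difference of 4.76. Both were near the middle of the OAW42 array and near the top of the OAW42-R array, and the clusters on either side of the pair differed by 0.00 and 0.29. TC02003463 on chromosome 2 was at 10.02 in OAW42-R against 4.81, a difference of 5.21 (37.0-fold), with its OAW42 level at the 23.4th percentile of that array. Its lower neighbour TC02003462 differed by 0.77 and its upper neighbour by -0.05.

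TC19002012 was at 11.38 in OAW42-R and 7.95 in OAW42 (10.8-fold), between clusters that differed by -0.03 and -0.04. TC08002413 was at 13.17 and 10.18 (7.94-fold) and had the highest signal of the 693 in OAW42-R. It was thus already bright in the sensitive line. TC21001006 was at 8.91 and 6.69, a difference of 2.22. The other 9 of the 15 largest differences above the 75th percentile were all on chromosome 9, from 2.12 for TC09000281 to 2.90 for TC09001173, and are given with that chromosome below.

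The largest lower differences were smaller than the largest higher ones, although the medians were alike in size. TC06002871 was furthest below its OAW42 level, at 10.10 in OAW42 and 6.90 in OAW42-R, a 9.19-fold difference. TC07003064 was at 11.88 in OAW42 and 9.11 in OAW42-R (6.82-fold). TC07003064 was the brightest of the 693 in OAW42, and its OAW42-R level was still well above the array's median. TC11003298 was at 8.70 and 6.29, where the OAW42-R level was just below the median of that array. On chromosome 11, TC11000843 was at 9.21 in OAW42 and 7.29 in OAW42-R and TC11002799 at 9.23 and 7.33. Among the 15 largest lower differences above the 75th percentile, the remaining 10 were -1.22 to -0.87, and 6 of the 15 were on chromosome 11. TC11000843 and TC11002799 had nearly the same values. So had TC11001255, at 11.06 in OAW42 and 9.90 in OAW42-R, and TC11002986, at 10.99 and 9.78. Whether such pairs are separate transcripts was not tested.

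Other clusters past 4-fold were dimmer or differed by less than those. TC18000770 was bright, at 10.78 in OAW42-R against 8.75, which is 2.03 higher. TC01002885, TC01005639 and TC11002623 were at 7.22, 7.40 and 6.68 in OAW42-R and at 5.21, 5.17 and 4.30 in OAW42. TC14000529 was at 6.48 and 4.12, while the next number, TC14000530, differed by -0.83. Apart from TC18000770 these were below the median in OAW42 and not far above it in OAW42-R. TC02004178, at 8.15 in OAW42-R and 6.04 in OAW42, and TC08001815, at 7.17 and 4.83, were also below the OAW42 median. TC01004822, at 8.72 and 6.70, was above the median in both lines. The fourth cluster more than 4-fold lower, TC13001423, was at 5.93 in OAW42 and 3.28 in OAW42-R, below the median in both.

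Among clusters whose brighter array reached its 75th percentile, none of the 15 with the largest lower differences had an adjacent number past 1.5-fold. TC11002985, beside TC11002986, and TC01003063, beside TC01003064, were just short of it, both at -0.57. TC11000679 lay between SYT12 (a synaptotagmin), which differed by 0.02, and KDM2A (a histone lysine demethylase), which differed by 0.18, while the cluster itself was at 9.29 in OAW42 and 8.07 in OAW42-R. TC11001255, at 11.06 and 9.90, was followed by the mucin gene MUC6, which differed by -0.09. Of the 15 corresponding higher clusters, 11 had an adjacent number past 1.5-fold. Those higher clusters differed by at least 2.12 and the lower ones by as little as -0.87, so the counts do not compare like sizes. Dimmer lower clusters did have adjacent numbers past 1.5-fold, as TC13000541, which differed by -1.26 between numbers at 0.66 and -0.79.

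**Figure D2:**
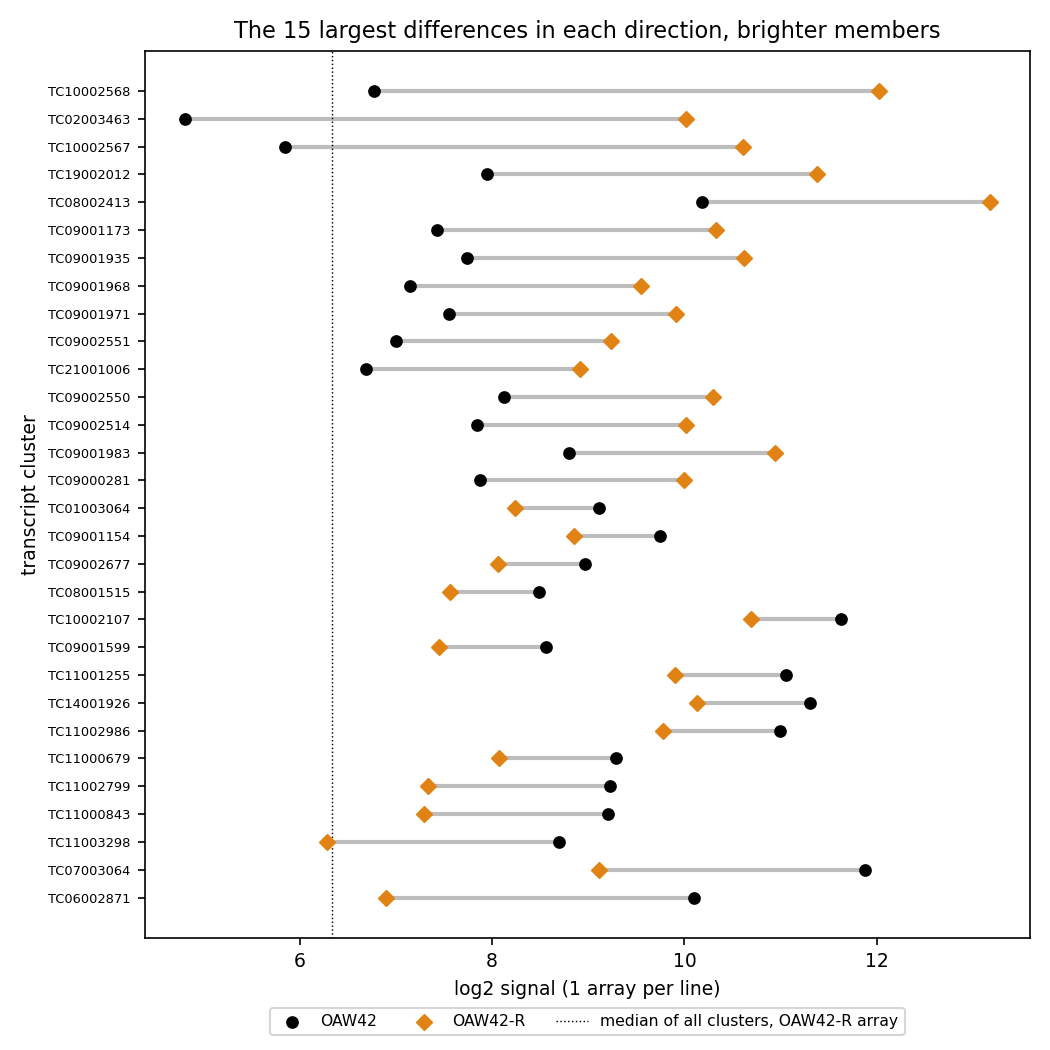
Log2 signal of 30 clusters in OAW42 (black circles) and OAW42-R (orange diamonds), 1 array per line, for the 15 largest differences in each direction among clusters whose brighter array reached its 75th percentile. Higher clusters reach a difference of 5.25 and lower ones -3.20, and the dotted line is the median of all clusters on the OAW42-R array (6.34).

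Successive numbers shared a direction more often than unnamed clusters at large passed the limit. There were 51 runs of 2 to 6 successive clusters past the limit, holding 117 of the 693 (16.9%). In 40 runs every cluster was higher, in 6 every cluster was lower, and 5 were mixed. Runs numbered 34 in the third block, 11 in the second and 6 in the first. The third block held 386 of the 693 and no named cluster that could end a run. The counts thus do not compare the blocks. Of 887 unnamed clusters adjacent to a higher one, 93 (10.5%) were also at least 1.5-fold higher and 6 were lower, against 1.66% and 0.406% of all unnamed clusters. Of 239 adjacent to a lower one, 15 (6.28%) were also lower and 6 were higher. Adjacent clusters can be pieces of 1 transcript or share sequence, which was not tested.

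The longest run was on chromosome 5, numbers 2767 to 2772 of the third block. Its 6 clusters were at 9.14, 8.49, 10.92, 8.75, 7.78 and 6.98 in OAW42-R and at 8.06, 7.48, 9.90, 7.89, 7.02 and 6.10 in OAW42. They differed in level yet by nearly the same amount, 0.76 to 1.08 with a median of 0.94. The number before the run, 2766, was at 13.06 and 12.63 (0.43), and the one before that differed by 0.91. Number 2773, after it, differed by 0.10, so the run ended within 1 number on that side.

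The next longest, numbers 1967 to 1971 of chromosome 9, had differences of 0.85, 2.40, 2.73, 0.96 and 2.36. Numbers 1949 to 1951 of the same chromosome differed by 0.70, 1.06 and 1.03. The 3 other higher runs of 3 clusters were on chromosomes 8 (0.63 to 1.21) and 1 (0.67 to 1.43 and 0.61 to 1.07). Mixed runs were seen on chromosome 13, numbers 540 to 543 (0.66, -1.26, -0.79 and 0.95), where no level exceeded 6.35, and on chromosome 9, numbers 1173 to 1175 (2.90, 0.68 and -0.59).

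A named gene of the same block within 5 numbers could be found for 251 clusters. The 205 higher clusters had 337 different nearest genes, of which 22 (6.53%) were themselves at least 1.5-fold higher, against 1.63% of all named clusters. Of the 70 nearest genes of 46 lower clusters, 3 (4.29%) were at least 1.5-fold lower, against 0.835%. Most nearest genes stayed within 1.5-fold, with a median difference of 0.04 beside higher clusters and -0.03 beside lower ones. A nearest gene 1 number away from a higher cluster was also higher in 19 of 177 pairs (10.7%). For nearest genes 3 to 5 numbers away it was 0 of 95. Genes behind a nearer named one were not counted, and some within 5 numbers were higher, such as SLC1A1 and MAL2. Beside lower clusters the counts were 3 of 26 at 1 number and 2 of 34 at 3 to 5. Both of the latter pairs were with the same gene, MBOAT1. Gene and cluster were read on the same pair of arrays, so an error of an array enters both.

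The 22 genes higher together with an unnamed neighbour are given by what they encode, an order chosen after their values were seen and not tested as groups. Of the transporters and channels, SLC6A13, a GABA transporter, was at 8.45 in OAW42-R and 7.56 in OAW42, beside TC12001081 at 5.59 and 4.96. SLC6A12, the betaine and GABA transporter next to it, differed by 1.34, and a further cluster, TC12001084, was at 6.39 and 5.36. Between those clusters lay KDM5A, a histone demethylase gene, which differed by 0.09, and NINJ2, an adhesion gene, which differed by 0.28, so the stretch of chromosome 12 did not differ as a whole. SCN2A, a voltage-gated sodium channel, was at 7.19 and 6.30, beside TC02000984 with a difference of 0.87. SLC2A1, the glucose transporter GLUT1, was at 10.28 and 9.65, beside TC01002577 with a difference of 0.60.

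Other protein-coding genes had various roles. RALYL, an RNA-binding protein, differed by 1.86, and the next number, TC08000527, was at 6.75 and 5.26. CYRIA, which binds the small GTPase RAC1, differed by 0.75, and the cluster beside it, TC02001601, was at 11.69 and 10.17. Here the unnamed cluster differed by 1.52, more than the gene. LIMA1, an actin-binding protein, was at 9.05 and 8.25, beside TC12001494 at 5.80 and 4.63. CXADR, the coxsackievirus and adenovirus receptor of cell junctions, differed by 0.76 and its neighbour TC21000050 by 0.71.

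Non-coding genes and pseudogenes followed. TCF7L1-IT1, an intronic transcript of the Wnt transcription factor gene TCF7L1, was at 6.80 in OAW42-R and 5.33 in OAW42. The 2 numbers after it, TC02000504 and TC02000505, were at 5.20 and 6.71 in OAW42-R and at 4.41 and 5.46 in OAW42. All 3 were higher and dim in the sensitive line. LINC01963 differed by 0.79, SNAP25-AS1, antisense to the synaptic gene SNAP25, by 0.69, and the 5S rRNA pseudogene RNA5SP273 by 1.04, with clusters beside them at 0.69, 1.28 and 0.78. AQP7P3, a pseudogene of the water and glycerol channel aquaporin 7, was at 10.63 and 7.73, with TC09000249 and TC09000252 on either side differing by only 0.71 and 0.74. The pseudogene LOC100996643 was at 10.22 and 7.99 beside TC09000302 with 0.65.

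The other genes past 1.5-fold beside a higher cluster were OPN5 (an opsin, 0.77), STAG3L4 (0.74), SAMD12 (0.66), ANKRD36B (0.61), ERAP2 (a peptide-trimming aminopeptidase, 0.61), SCARNA1 (a small Cajal body RNA, 0.59) and GDA (guanine deaminase, 0.59). SCARNA1 and GDA sat at the limit itself.

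Lower clusters shared a direction with 3 genes. MBOAT1, a lysophospholipid acyltransferase, was at 9.56 in OAW42-R and 10.41 in OAW42, and numbers 1310 to 1312 before it were at 8.43, 7.29 and 8.51 against 9.06, 7.90 and 9.29. Those were the only run of 3 in which every cluster was lower. Number 1308 was also lower, at 9.45 and 10.09, while 1309 between them was at 4.01 and 4.04, where no difference could be read. CCAT1, a long non-coding RNA gene near MYC, was at 9.14 and 10.01, beside TC08001626 at 7.72 and 8.59. NRG1, a growth factor that binds ERBB receptors, was dim in both lines and differed by -0.65, beside TC08000256 with a difference of -0.81.

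In 6 pairs gene and cluster were past 1.5-fold in opposite directions. Beside higher clusters the gene was lower in 5 of 361 pairs (1.39%), against 0.835% of all named clusters. Beside lower clusters it was higher in 1 of 76 (1.32%), against 1.63%. Both shares were near those of named clusters at large, so the pairs are given as single cases. TC01002885 was at 7.22 in OAW42-R and 5.21 in OAW42 while the gene beside it, F3, which encodes tissue factor, differed by -0.88. Higher clusters stood beside lower genes also at TNS3 (a tensin of focal adhesions, -0.91, cluster 1.07), CRIM1 (-0.67, cluster 1.11), MAP3K5 (the stress kinase ASK1, -0.69, cluster 0.68) and ENPP2 (autotaxin, -1.04, cluster 0.70). At AQP7P1 the gene was higher, at 9.87 and 7.32, while TC09001154 was lower, at 8.85 and 9.75.

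**Figure D3:**
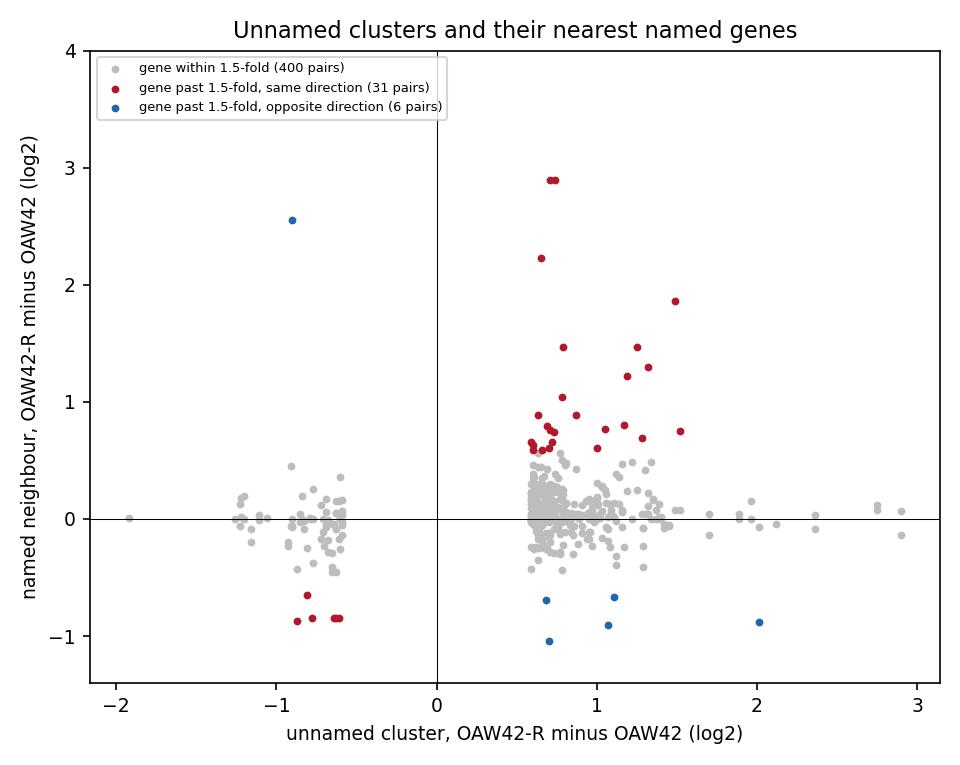
Difference OAW42-R minus OAW42 (log2) of each unnamed cluster (x axis) against that of its nearest named genes within 5 numbers (y axis), 437 pairs, with red where the gene passed 1.5-fold in the same direction and blue in the opposite one. There are 31 red and 6 blue pairs, and most genes lie near 0 whatever the size of the cluster's difference.

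Read from the genes, 130 named clusters differed at least 2-fold, 84 higher and 46 lower. Of 554 unnamed clusters within 5 numbers of them, 22 (3.97%) were past 1.5-fold, against 2.05% of all unnamed clusters in the blocks with names (306 of 14938). For 13 of the 84 higher genes an unnamed cluster nearby was also higher, among them SLC1A1 (a glutamate transporter, 9.07 and 6.64), MAL2 (a membrane traffic protein, 10.70 and 9.20), PTAFR (the receptor for platelet-activating factor, 9.82 and 8.50) and LINC00534 (7.64 and 5.09). The clusters near those named, TC09000024, TC08000690, TC01002419 and TC08000550, were below the median of both arrays. Of all 130 genes, 20 had a cluster past 1.5-fold nearby, and for 14 at least 1 had the gene's direction. Genes at large were not counted in this way, so these counts have no share beside them. For 1 of the 46 lower genes a cluster nearby was also lower. That gene was SLFN11, whose protein blocks stressed replication forks, at 7.07 in OAW42-R and 9.22 in OAW42. TC17001364, 5 numbers before it, was at 4.37 and 5.06, both below the median of the array. Large differences of named genes thus mostly had no counterpart among the unnamed clusters within 5 numbers. The third block, with 18476 of the 33477 unnamed clusters, was outside that search. So were clusters numbered in the block of the other strand, and neither was tested.

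Chromosome 9 had the highest share past 1.5-fold, 60 of its 1931 unnamed clusters (3.11%), of which 51 were higher. Over all the chromosomes used the share was 2.07%. It also held 11 of the 29 clusters past 4-fold. Chromosome 8 followed with 2.71% (47 of 1737) and chromosome 11 with 2.69% (53 of 1969). On chromosome 11, 17 of the 53 lay in the dim stretch of numbers 1601 to 1700 described below. The lowest shares were on chromosome 16, with 0.91% (10 of 1099), and chromosome 21, with 0.928% (7 of 754). Named clusters did not rank alike. Their shares past 1.5-fold were 2.40% on chromosome 9, 3.05% on 8, 1.40% on 11, 1.98% on 16 and 1.37% on 21. Chromosome 6 had the most lower clusters, 21 of 50, and on chromosome 14 9 of 21 were lower. None of 22 unnamed mitochondrial clusters passed the limit.

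**Figure D4:**
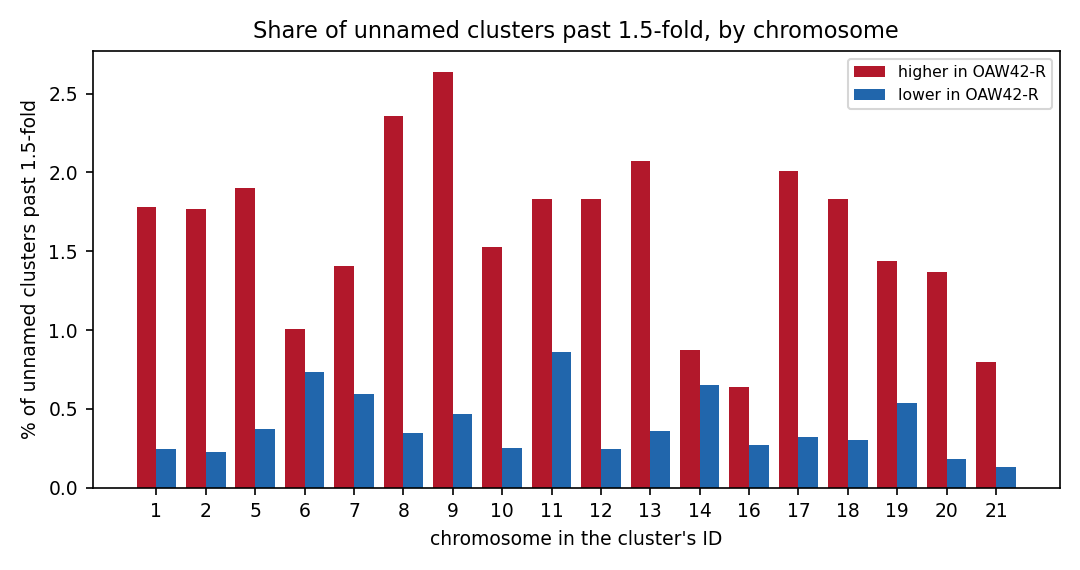
Percent of unnamed clusters at least 1.5-fold higher (red) or lower (blue) in OAW42-R, by the chromosome in the cluster's ID. Chromosome 9 has the tallest red bar and chromosome 11 the tallest blue one, 17 clusters of 1969, of which 7 lie in the dim stretch of numbers 1601 to 1700.

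On chromosome 9, where 5 or more clusters followed each other at most 25 numbers apart, 4 stretches were formed after the values were seen. Numbers 249 to 302 of the first block held 7 among 43 unnamed clusters, and 1146 to 1179 of the second held 6 among 23. Numbers 1934 to 2021 of the third block held 14 of 88, all higher, and 2547 to 2569 held 5 of 23, of which 4 were higher. The large differences within them were alike in size. TC09001173 was at 10.33 in OAW42-R and 7.43 in OAW42, TC09001935 at 10.62 and 7.74, and TC09001968 at 9.55 and 7.15. TC09001971 was at 9.91 and 7.55, TC09001983 at 10.94 and 8.80, and TC09000281 at 10.00 and 7.88. In the fourth stretch TC09002550 was at 10.30 and 8.12, and TC09002551 differed by 2.24. Outside the stretches, TC09002514 was at 10.02 and 7.84. Brightness in OAW42-R was a condition of choosing these 9, and all 9 were above the array's median in OAW42. Other large differences on the chromosome were not. TC09001969, in the third stretch, was at 6.85 in OAW42-R and 4.12 in OAW42. Away from the stretches, TC09001627 was at 7.65 and 4.90. Both were below the OAW42 median.

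The aquaporin 7 pseudogenes AQP7P3 and AQP7P1 lay in the first and the second of these stretches, with differences of 2.90 and 2.55, and LOC100996643, with 2.23, just after the first. Some clusters there had the same pair of values. TC09000249 and TC09001179 were both at 7.54 and 6.83, TC09001934 and TC09001967 both at 7.53 and 6.68, and TC09001119 and TC09001146 both at 6.47 and 5.88. Probes of such pairs may read near-identical copies, and the counts given for chromosome 9 and its stretches include both clusters of each pair. Values were also nearly equal among the large differences. TC09001935, at 10.62 and 7.74, was close to AQP7P3, at 10.63 and 7.73. Whether the clusters past 4-fold on chromosome 9 read copies of each other or of these pseudogenes was not tested, so they may not be separate transcripts.

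**Figure D5:**
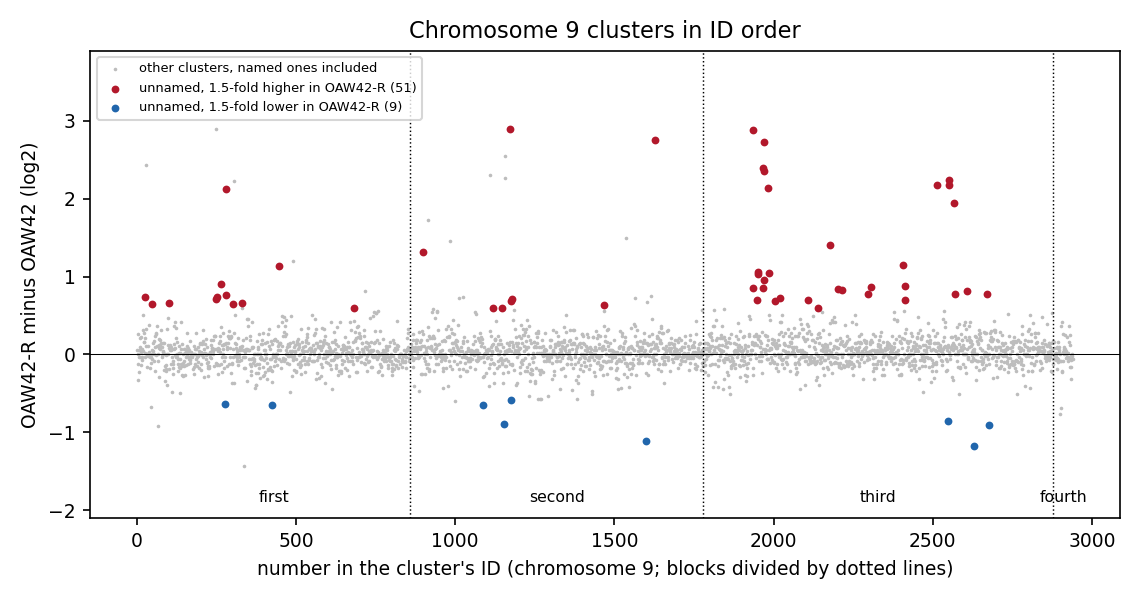
Difference OAW42-R minus OAW42 (log2) of every chromosome 9 cluster against the number in its ID, with the 4 blocks of numbers divided by dotted lines, red and blue for the 51 higher and 9 lower unnamed clusters and grey for the rest. Points above 2 lie in the first and second blocks, AQP7P3, AQP7P1 and TC09001173 among them. Others lie in the first part of the third block and near number 2550.

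Among windows of 50 numbers that held at least 6 of the clusters, that of chromosome 5 from 1001 to 1050 had the highest share, 6 of its 25 unnamed clusters (24.0%), all higher. TC05001025 was at 9.12 in OAW42-R and 7.92 in OAW42, TC05001026 at 7.85 and 6.45, TC05001028 at 8.63 and 7.56, and TC05001029 at 7.84 and 6.45. TC05001026 and TC05001029 were thus nearly equal, and TC05002086, outside the window, was close to TC05001025 at 9.13 and 7.91. The share counts each cluster, and whether they read copies was not tested. The named genes on either side differed little, B4GALT7, a galactosyltransferase, at 8.37 and 8.42 and N4BP3 at 7.56 and 7.54. On chromosome 1, numbers 5351 to 5400 held 6 higher clusters, of which TC01005362 was at 10.52 and 8.91.

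The stretch with the most clusters behaved otherwise. Numbers 1601 to 1700 of chromosome 11, all unnamed, held 17 past the limit, of which 10 were higher and 7 lower. Their levels ran from 2.84 to 7.27 in OAW42-R and from 2.89 to 7.93 in OAW42, and 12 of the 17 were below the median of both arrays. TC11001693, at 3.36 and 4.90, and TC11001691, at 4.71 and 2.98, lay 2 numbers apart and differed in opposite directions. The whole stretch was dim, with a median of 4.99 and 4.93 over its 100 unnamed clusters.

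Equal values set a limit on the count. Of the 693, 50 shared both deposited values with another cluster, in 29 groups, and 672 remained when each set of equal members was counted once. Clusters with nearly equal values were still counted separately. On chromosome 17, TC17000432, TC17000455, TC17000733, TC17000751 and TC17001416 were all at 8.67 in OAW42-R and 7.94 in OAW42. TC17000412, TC17000419 and TC17000426 were all at 8.66 and 7.86. In 9 groups holding 18 of the clusters every cluster was on 1 chromosome. Pairs on different chromosomes can share 2 values by rounding alone, and the sequences needed to tell were not used here.

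Cell identity was checked on markers. All 10 ovarian and epithelial markers were above the median of both arrays, with a median difference of 0.07. Of the markers of other cell types, 3 of 5 for fibroblasts, 2 of 5 for leukocytes, 2 of 4 for endothelium and 3 of 4 for mesothelium were above the median, with median differences from -0.04 to 0.02. Of the leukocyte markers PTPRC was at 4.21 in OAW42-R and 4.25 in OAW42 and CD68, a lysosomal protein of macrophages, at 10.47 and 10.56. Past 1.5-fold were the epithelial adhesion gene EPCAM, at 10.70 and 10.03, and the mesothelial marker LRRN4, at 8.69 and 7.78. The part of other cells in the differences was not tested.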

How the data were processed

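Total RNA of OAW42 and OAW42-R, 1 sample each, was hybridised to Affymetrix human transcriptome arrays. The authors normalised the arrays by RMA, which corrects background, equalises the distributions of arrays and summarises probes, and deposited 1 log2 value per cluster and array, rounded to 2 decimals. The genome build, the annotation release and the RMA version are not given in the sources used here. RMA compresses large folds, most so near background, and removes any shift in total RNA per cell. The number of arrays limits the precision, and with 1 per line no test was possible.

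Clusters were named with the platform annotation, in which 23780 had 1 symbol, 1541 several and 42203 none. Symbols were updated with a RefSeq table of GRCh38.p14, through the Entrez identifier in 21497 cases, the symbol in 1974 and a former symbol in 305, which left 4 with the platform's own. The table gave names, gene types and gene order. The ending shared by all cluster IDs is left out. The difference was OAW42-R minus OAW42 of the deposited values. Neighbours were the nearest clusters with 1 symbol below and above within 5 numbers, in the same block.

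Clusters named in the text were the 15 largest differences in each direction among those whose brighter array reached its 75th percentile, members of runs, named neighbours past 1.5-fold, and clusters at the limit. Opposite pairs, genes of 2-fold difference, the adjacent clusters and genes of named ones, the chromosome 9, 1 and 11 windows and that of chromosome 5 were named after their values were seen. The clusters and lists were chosen with earlier results of these data known. Alternatives were centring, quantile normalisation, lowess (span 0.3), signal floors, 2-fold and 4-fold limits, other distances and gaps within runs. Counting was tested on simulated data. Python 3.11.15, numpy 2.4.6, pandas 2.3.3, statsmodels 0.14.6 and matplotlib 3.10.9 were used.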

Additional observations from a re-analysis of the deposited data

How the results depend on the processing

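Of the 557 higher and 136 lower clusters, 218 and 44 remained when the brighter array had to reach its 75th percentile, and 80 of the lower ones when it had to reach the 50th. A 2-fold limit left 149 and 33, and a 4-fold limit 25 and 4. Of the 468 clusters above the 50th percentile, 262 were above the 75th. The 31 same-direction neighbour pairs became 20 of 253 (7.91%) at the 50th percentile and 8 of 105 (7.62%) at the 75th. Allowing 2 other clusters within a run raised the 51 runs to 78. Around genes of 2-fold difference the 22 clusters became 6 of 113 (5.31%) within 1 number and 54 of 2064 (2.62%) within 20. Centring, quantile normalisation and lowess gave 490 to 511 higher and 154 to 167 lower clusters. They put the higher share at 76.7%, 74.6% and 76.8%, and the count past 2-fold, an alternative added after seeing the data, at 170 to 173 against 182. Of 183 values of the 61 named clusters and neighbours under these 3 scalings, 183 kept their direction and 177 stayed past 1.5-fold, and the largest move was 0.04. The exceptions were SCARNA1, GDA and ERAP2. No paired analysis was possible because each line had 1 array, and for the same reason no replicate could be left out.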
